A study of Drosophila melanogaster with 27 samples.

Results

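Mitochondrial ribosomal protein genes were defined by symbol, as all Drosophila genes whose current symbol starts with mRpL (large subunit) or mRpS (small subunit). The gene table held 73 such genes, and 64 of them had a probe on the arrays, 43 of the large and 21 of the small subunit, among 11518 named genes tested. All 64 passed the requirement of at least 2 measured arrays in every condition, and each was read from its brightest probe. The 9 genes without a probe were mRpL27, mRpL34, mRpL36, mRpL53, mRpS5, mRpS14, mRpS18A, mRpS21 and mRpS23.

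Mitochondrial ribosomes translate the few proteins encoded by mitochondrial DNA, nearly all of them subunits of the respiratory chain. Their RNA comes from the mitochondrial genome, whereas every one of their proteins is encoded in the nucleus, translated in the cytoplasm and imported. Part of these proteins descend from bacterial ribosomal proteins, most of them under the same numbers, and others have no bacterial counterpart. In the eye imaginal disc, dividing cells lie ahead of the morphogenetic furrow and differentiating photoreceptor clusters behind it, and each cluster is founded by a photoreceptor called R8.

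Each of the 27 two-colour arrays set a test RNA against a common reference RNA from whole eye-antennal discs of an isogenized w1118 stock, which develops a normal eye apart from its missing pigment. The test RNA came from wandering larvae of the third instar. The w1118 posterior fragments (4 arrays) were eye discs cut along the furrow, so that by design they lacked the anterior eye disc and the antennal disc. The mutant discs were whole discs of roDom homozygotes (3 arrays), roDom heterozygotes (2), E(roDom)2033 homozygotes (3), E(roDom)2033 heterozygotes (2), ato1 homozygotes (3), hh1 homozygotes (4), roX63 (3) and Su(roDom)519 (3). The labels give no zygosity for the last pair, no sex and no genetic background for the mutant stocks. Per the series description, fewer photoreceptors form behind a stopped furrow in ato1, hh1, roDom and E(roDom)2033, and additional R8 cells form in roX63 and in Su(roDom)519. Both homozygotes, ato1 and hh1 together make up the stop-furrow discs (13 arrays), and the latter 2 mutants the extra-R8 discs (6 arrays). Every test RNA came from a few discs and went through 2 rounds of linear amplification, against 1 round for the reference.

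Between 48.6% and 95.4% of probes were detected per array, with the lowest share in posterior replicate 1. Of the 64 genes, between 57 and 64 were detected in the reference on each array. The 7 eye disc markers were all detected, as were all markers of the antennal disc (7), glia (4), blood cells (6), muscle (9) and salivary gland (4), and 6 of 7 of the fat body. The labels of 4 arrays need care. A label field calls E(roDom)2033 homozygote replicates 2 and 3 heterozygous, against their titles, which were used. One roDom heterozygote array has its zygosity in the title only. For replicate 2 of the roDom homozygotes, the file header and the labels disagree on which RNA carried which dye, and the labels were used. As labelled, its ratios correlated with those of its replicates at 0.29 and 0.51 over all probes, and at -0.88 with its column in the authors' deposited table, whose ratios ran as reference over test.

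Values below are log2 ratios of test over reference, so that 0 is the level of the reference and 1 is 2-fold above it. A fitted value carries its standard error, and a gene is called changed at an adjusted p under 0.05 (limma, Benjamini-Hochberg over 16489 probes). No control RNA was hybridised against the reference, so a test against 0 treats the reference as 1 control sample and holds any effect of the extra amplification round. Neither limit touches a difference between conditions. In whole discs, fewer cells of a type and less RNA per cell cannot be told apart.

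The median of the 64 genes was lowest in the posterior fragments and highest in the extra-R8 discs. It was -0.04 in posterior fragments, 0.03 in ato1, 0.11 in E(roDom)2033 homozygotes and 0.14 in hh1. It was 0.23 in roDom homozygotes, 0.25 in roDom heterozygotes and 0.28 in E(roDom)2033 heterozygotes, and it reached 0.34 in Su(roDom)519 and 0.37 in roX63. The median of all named genes stayed between -0.003 and 0.01 in the same conditions. Of the 64 genes, 26 were above 0 in posterior fragments, 34 in ato1, 55 in roX63 and 60 in Su(roDom)519.

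**Figure D1:**
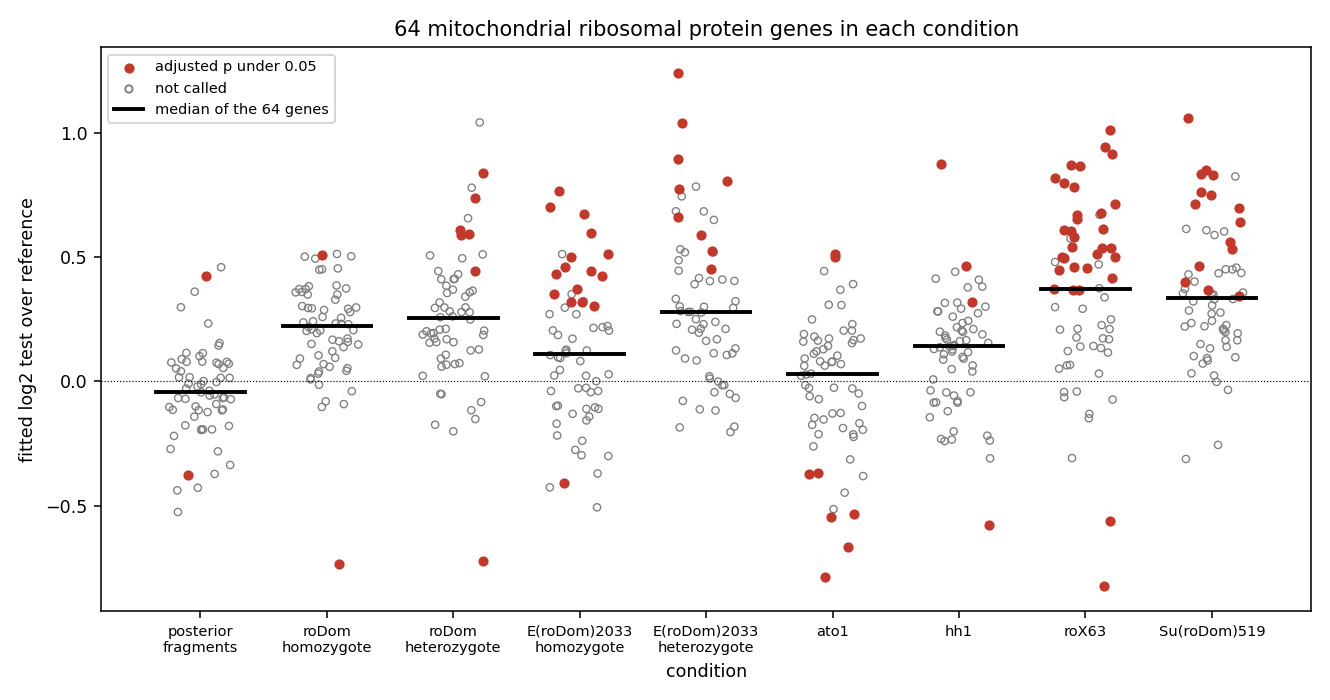
Fitted log2 ratio of test over reference (vertical axis) of the 64 mitochondrial ribosomal protein genes in each of the 9 conditions; each point is a gene, filled where its adjusted p was under 0.05, and the bar is the median of the 64 genes. The median runs from -0.04 in posterior fragments to 0.37 in roX63. The lowest point in roDom homozygotes, roDom heterozygotes, ato1, roX63 and Su(roDom)519 is mRpL37.

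The array medians of the set moved with the dye as well as with the condition. On the 15 arrays with test RNA in Cy3 the median of the 64 genes ran from -0.30 to 0.31, with a middle value of 0.01. On the 12 arrays with test RNA in Cy5 it ran from -0.03 to 0.57, with a middle value of 0.38. The fitted dye term had a median of 0.14 over the 64 genes and was above 0 for 61 of them, against a median of 0.01 over all named genes. The dye term was part of the fit, since the dyes were not balanced within conditions. Within Cy3, array medians were -0.26 to 0.12 in posterior fragments (3 arrays), -0.30 to 0.27 in stop-furrow discs (8 arrays), and 0.19 and 0.31 on the 2 extra-R8 arrays. Within Cy5 the single posterior array was at -0.03, the 5 stop-furrow arrays at 0.20 to 0.37 and the 4 extra-R8 arrays at 0.40 to 0.57. The order posterior, stop-furrow, extra-R8 thus held for the middle values within each dye, and only in Cy5 did the 3 classes not overlap.

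**Figure D2:**
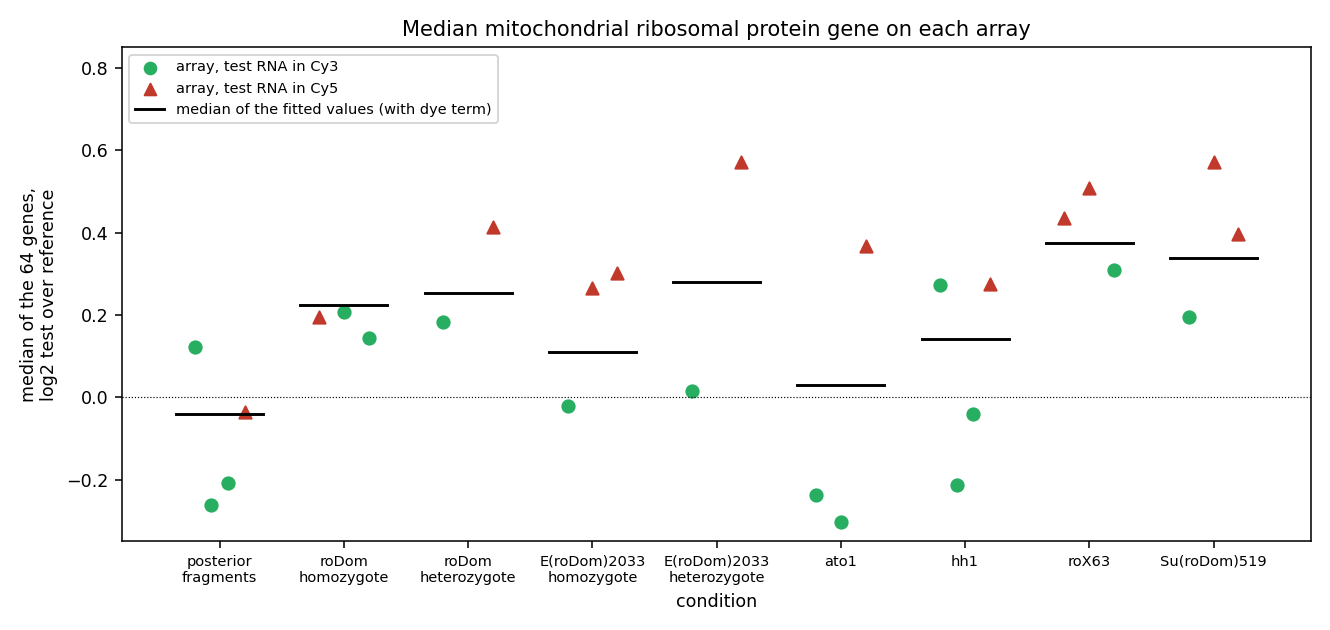
Median log2 ratio of the 64 genes on each of the 27 arrays (vertical axis), by condition; circles are arrays with test RNA in Cy3, triangles arrays with test RNA in Cy5, and bars the medians of the fitted values. Cy5 arrays reach 0.57 and Cy3 arrays 0.31, and the 6 extra-R8 arrays run from 0.19 to 0.57.

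In the extra-R8 mutant roX63, 30 of the 64 genes (46.9%) were called higher than the reference, where 6.13% of all probes were, and 2 were called lower, where 7.40% of all probes were. In Su(roDom)519, 15 were called higher (23.4%, against 2.56% of all probes) and none lower (2.15% of all probes). The counts rested on all 3 arrays of each genotype, and called genes dropped to 10 without roX63 replicate 2 or 3, to 16 without roX63 replicate 1, to 4 without Su(roDom)519 replicate 1 or 2 and to 6 without replicate 3. With the scanning day as a random block 17 genes were called in roX63 and 7 in Su(roDom)519.

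mRpL11, a protein of the stalk base where translation factors bind the large subunit, was called higher in more conditions than any other of the 64 genes. Its 3 roX63 arrays were at 0.99, 1.27 and 0.50 and its 3 Su(roDom)519 arrays at 0.71, 1.14 and 0.79. Its fitted value was 0.87 ± 0.13 in roX63 (adjusted p = 0.00018) and 0.83 ± 0.13 in Su(roDom)519 (adjusted p = 0.0012). It was also called in E(roDom)2033 heterozygotes (0.81), roDom heterozygotes (0.59) and E(roDom)2033 homozygotes (0.46). mRpS22 and mRpL47, the latter a relative of a bacterial protein at the exit of the nascent chain, were each called higher in 4 conditions.

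mRpS10, whose bacterial counterpart lies in the head of the small subunit, was at 1.21, 1.08 and 0.37 on the roX63 arrays and at 0.56, 1.29 and 1.55 on the Su(roDom)519 arrays. Its fitted value of 1.06 ± 0.15 was the highest of the set in Su(roDom)519 (adjusted p = 0.0006). In roX63 the highest was mRpL23, whose bacterial counterpart sits at the exit of the peptide tunnel, at 1.01 ± 0.31 (adjusted p = 0.035). A dimmer second probe of mRpL23 gave 0.87 there (adjusted p = 0.00051).

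The other genes among the 10 highest called in roX63 were mRpL18 (0.95), mRpL22 (0.92), mRpS6 (0.87), mRpS10 (0.82), mRpL33 (0.80), mRpS25 (0.78), mRpL13 (0.71) and mRpS33 (0.68). In Su(roDom)519 they were mRpS25 (0.85), mRpL13 (0.84), mRpL11 (0.83), mRpL18 (0.76), mRpL3 (0.75), mRpL32 (0.72), mRpS18C (0.70), mRpS16 (0.64) and mRpS6 (0.56). The genes called lower in roX63 were mRpL37 (-0.82) and mRpL54 (-0.56), a pair without bacterial counterparts. mRpL37 also had the lowest fitted value in Su(roDom)519 (-0.31), which did not pass.

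Markers of other tissues differed from the reference in the same discs. In roX63, 4 of 9 muscle markers (median 0.75) and 2 of 7 fat body markers (median 1.10) were called higher, and 3 of 4 salivary glue genes (median -3.68) and 2 of 4 glial markers (median -0.39) lower. In Su(roDom)519, 3 of 4 salivary glue genes (median -3.98), 2 of 7 eye disc markers and 1 of 4 glial markers were called lower. Their part in the counts of the 64 genes was not tested.

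The E(roDom)2033 heterozygotes had 9 genes called higher (14.1%, against 2.75% of all probes) and none lower (2.44% of all probes). mRpL22, whose bacterial counterpart lines the peptide tunnel, was at 0.87 and 1.62 on their 2 arrays and had the largest fitted change of the 64 genes in any condition, 1.24 ± 0.31 (adjusted p = 0.025). mRpL18, a protein of the central protuberance, was at 0.91 and 1.17 and had a fitted value of 1.04 ± 0.19 (adjusted p = 0.0049). The others were mRpS10 (0.90), mRpL11 (0.81), mRpS18C (0.78), mRpL32 (0.66), mRpL13 (0.59), mRpS22 (0.53) and mRpL47 (0.45). The lowest fitted value, -0.20 for mRpL38, did not pass. With only 1 of the 2 arrays kept, none of the 64 genes was called without replicate 1 and 2 without replicate 2.

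In E(roDom)2033 homozygotes 15 genes were called higher (23.4%, against 7.31% of all probes) and 1 lower (6.45% of all probes). mRpL2, whose bacterial counterpart lies close to the catalytic centre, was at 1.21, 0.39 and 0.93, with a fitted value of 0.77 ± 0.19 (adjusted p = 0.012). mRpL45, which in human cells anchors the ribosome to the inner membrane, was at 0.81, 0.37 and 0.94, with a fitted value of 0.70 ± 0.20 (adjusted p = 0.023). mRpS29, the counterpart of the human death-associated protein DAP3, had a fitted value of 0.67 ± 0.16 (adjusted p = 0.0073).

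The list went on with mRpS22 (0.60), mRpS26 (0.51), mRpL16 (0.50), mRpL11 (0.46), mRpL15 (0.45), mRpL19 (0.43) and mRpL44 (0.43). mRpL4 was called lower (-0.41), and the lowest fitted value was that of mRpL42 (-0.51), which did not pass. Of the markers, 5 of 7 of the eye disc (median -0.78) and 4 of 4 salivary glue genes (median -3.38) were called lower. So were 2 of 7 of the antennal disc (median -0.23) and 1 of 4 of glia (median -0.04). Their part in the counts of the 64 genes was not tested. Without replicate 1 none of the 64 genes was called, and without replicate 3 there were 2. With replicates 2 and 3 counted as heterozygotes 5 were called.

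Between the homozygotes and heterozygotes of E(roDom)2033 a single gene of the 64 was called. mRpL18 was at -0.42, -0.03 and -0.29 in E(roDom)2033 homozygotes and at 0.91 and 1.17 in the heterozygotes, without overlap. Homozygotes minus heterozygotes was -1.34 ± 0.24 (adjusted p = 0.0084), where 1.16% of all probes were called. The values of -0.03 and -0.29 are those of replicates 2 and 3, which a label field calls heterozygous. With these counted as heterozygotes, 1 array against 4, the difference was -0.73 ± 0.46 and did not pass (adjusted p = 0.89). For roDom no gene of the set was called between homozygotes and heterozygotes (0.00606% of all probes were), and 2 had an unadjusted p under 0.05. The test of whether this difference was unequal at the loci also called none of the 64 genes (0.0849% of all probes), with 6 at an unadjusted p under 0.05. The shares of all probes are those at an adjusted p under 0.05. The share at the unadjusted limit was not counted, so the unadjusted counts cannot be weighed. The limma fit was the tool for all 3 counts.

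The roDom heterozygotes had 6 genes called higher (9.4%, against 1.92% of all probes) and 1 lower (3.55% of all probes). The higher ones were mRpL49 (0.84), mRpS28 (0.74), mRpS22 (0.61), mRpL11 (0.59), mRpS6 (0.59) and mRpL46 (0.45), and the lower one was mRpL37 (-0.72). The highest fitted value, 1.04 for mRpL22 with arrays at 0.93 and 1.16, did not pass. None was called when either array was left out. In roDom homozygotes mRpL46 was called higher (1.30% of all probes were) and mRpL37 lower (2.40% of all probes), and the highest value, 0.51 for mRpS7, did not pass.

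Posterior fragments differed little from the reference, with 1 of the 64 genes called higher, where 2.75% of all probes were, and 1 lower, where 1.98% were. mRpS26, a protein found in mitochondrial but not bacterial ribosomes, was at 0.65, 0.23, 0.32 and 0.36, all above 0, with a fitted value of 0.43 ± 0.11 (adjusted p = 0.028). mRpL28 was at -0.28, -0.51, -0.51 and -0.35, all below 0, with a fitted value of -0.38 ± 0.10 (adjusted p = 0.038). The highest and lowest values, mRpS25 at 0.46 and mRpL33 at -0.53, did not pass. No gene was called without replicate 3 or 4, and 1 without replicate 2. Replicates 2 to 4 were scanned on 1 day, and with the scanning day as a random or a fixed block none was called. The fixed block sets such values to a scanning day that held hh1 replicate 1 alone. Of the markers, 1 of 7 of the antennal disc was called lower (median -0.10). Of the eye disc 1 of 7 was higher and 2 lower (median 0.37), and 1 of 6 of blood cells was higher. None of glia, fat body, muscle or salivary gland was called. Their part was not tested.

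In ato1 discs 2 genes were called higher (3.1%, against 4.31% of all probes) and 6 lower (9.4%, against 6.40%). mRpS31, another protein without bacterial counterpart, was at -0.57, -0.72 and -0.44, with a fitted value of -0.53 ± 0.10 (adjusted p = 0.001). mRpS7, whose bacterial counterpart organises the head of the small subunit, was at -0.40, -1.41 and -0.30, so that replicate 2 was far lower than the others, and its fitted value was -0.67 ± 0.20 (adjusted p = 0.036). mRpL37 (-0.79), mRpL54 (-0.55), mRpS11 (-0.37) and mRpL10 (-0.37), a stalk protein, were the others called lower, and mRpL9 (0.51) and mRpS29 (0.50) were called higher. Without any 1 of the 3 arrays 4 or 5 genes were called.

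In hh1 discs 3 genes were called higher (4.7%, against 3.07% of all probes) and 1 lower (2.87% of all probes). mRpL46, a large subunit protein with no bacterial counterpart, was at 0.78, 0.78, 0.82 and 1.08. These 4 arrays were above all 23 others, of which the highest was a roX63 array at 0.57. The fitted value was 0.87 ± 0.09 (adjusted p = 3.6e-06), and its difference from the mean of the other 8 conditions was 0.67 ± 0.10 (adjusted p = 0.00053). The call in hh1 held without each of its arrays and under each alternative run except a 2-fold limit, which the fitted value does not reach. With the scanning day as a fixed block, the value is set to a day that held hh1 replicate 1 alone. mRpL46 was also called higher in roDom homozygotes (0.54, 0.56 and 0.41 on the arrays, fitted 0.51 ± 0.10, adjusted p = 0.0084).

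mRpL43, at 0.43, 0.07, 0.31 and 0.66 on the hh1 arrays (fitted 0.46 ± 0.08, adjusted p = 0.0017), and mRpL39, at 0.38, 0.27, 0.28 and 0.30 (fitted 0.32 ± 0.07, adjusted p = 0.0097), were the others called higher. mRpL54 was at -0.12, -0.92, -0.58 and -0.69 (fitted -0.58 ± 0.12, adjusted p = 0.0059), with replicate 1 the nearest to the reference. It was called lower in ato1, hh1 and roX63 alike, by its brightest probe only. Its dimmer second probe passed in none of them, at -0.41 in ato1 (adjusted p = 0.071), -0.41 in hh1 (adjusted p = 0.06) and -0.22 in roX63 (adjusted p = 0.4). On the brightest probe the Su(roDom)519 arrays were at 0.41, 0.22 and 0.43. Without hh1 replicate 4, 2 genes of the set were called in hh1.

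mRpL37, again without bacterial counterpart, gave the strongest F-test of the set (adjusted p = 1.1e-05). Its arrays were at -0.67, -0.66 and -0.95 in roDom homozygotes and at -0.82 and -0.63 in roDom heterozygotes. They were at -0.81, -1.12 and -0.52 in ato1 and at -0.64, -0.71 and -1.03 in roX63. Every array of these 4 conditions was lower than every array of the other 5, whose lowest value was -0.45 in posterior fragments. The fitted values were -0.73 ± 0.10 in roDom homozygotes (adjusted p = 0.00024), -0.79 ± 0.10 in ato1 (adjusted p = 1.8e-05) and -0.82 ± 0.10 in roX63 (adjusted p = 2.7e-05).

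In E(roDom)2033 homozygotes mRpL37 was at 0.27, 0.42 and 0.45, with a fitted value of 0.35 ± 0.10 (adjusted p = 0.022) and a difference of 0.79 ± 0.11 from the mean of the other 8 conditions (adjusted p = 0.00013). The low and high conditions of mRpL37 did not follow the classes of the study, since stop-furrow discs held both its lowest (-1.12) and its highest array (0.45). Its probe is named through an older gene number that the current gene table splits between mRpL37 and a neighbouring gene, and the same holds for mRpS34. Either transcript of such a pair may be what these probes report. The call in roDom homozygotes was lost with replicate 2 turned by its file header (-0.30, adjusted p = 0.77), in the authors' deposited table (-0.41, adjusted p = 0.17), and in the 7th series of arrays alone without the dye term (-0.95, adjusted p = 0.063).

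**Figure D3:**
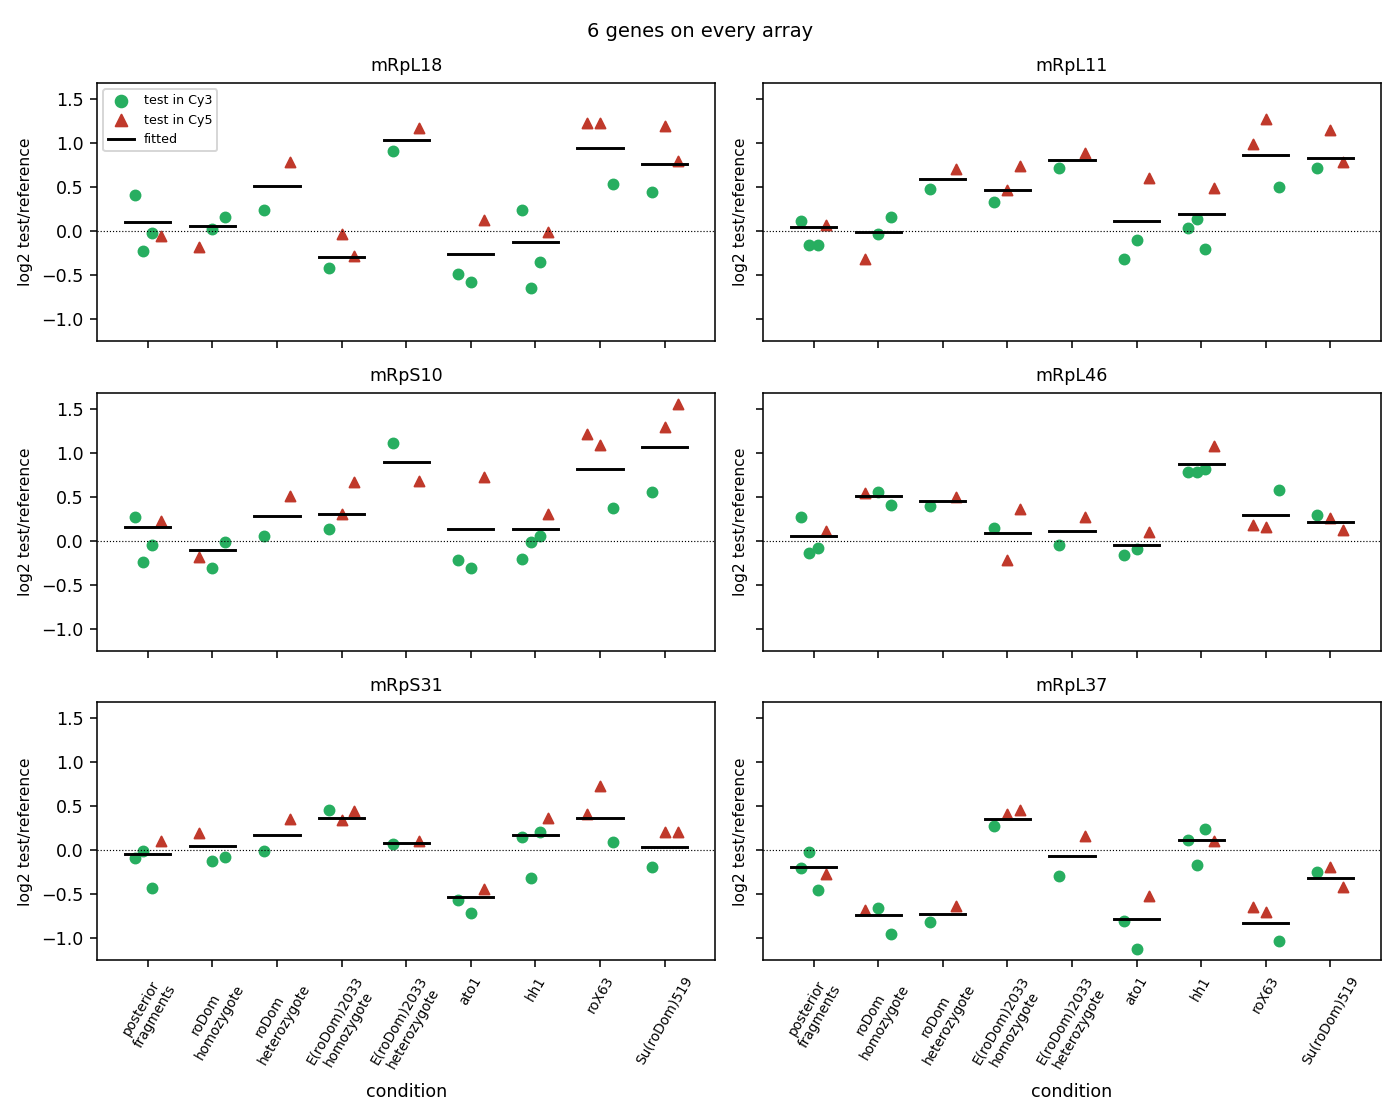
Log2 ratio of test over reference on every array (vertical axes) for 6 of the genes, by condition; circles are arrays with test RNA in Cy3, triangles arrays with test RNA in Cy5, and bars the fitted values. The hh1 arrays of mRpL46 run from 0.78 to 1.08, the arrays of mRpL37 are lowest in roDom, ato1 and roX63, and the extra-R8 arrays of mRpL18 run from 0.45 to 1.23.

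Tests of any difference among the 9 conditions (limma F-test) called 20 of the 64 genes, 31.2%, against 13.8% of all probes. They were 12 of 43 large subunit and 8 of 21 small subunit genes. The widest ranges of fitted values over the conditions were those of mRpL23 (1.53), mRpL22 (1.51), mRpS7 (1.45), mRpL18 (1.34), mRpL33 (1.32), mRpL42 (1.18), mRpL37 (1.18), mRpS10 (1.16), mRpS28 (1.11) and mRpS6 (0.99). Among them mRpL23 (adjusted p = 0.2) and mRpL42 (adjusted p = 0.25) did not pass the F-test. The dimmer second probe of mRpL23 did pass it (adjusted p = 0.0072). The brightest probe of mRpL23 was at 1.94 on posterior replicate 1, far from the other posterior arrays. The narrowest were those of mRpL24 (0.30), mRpL48 (0.33), mRpL1 (0.34), mRpS9 (0.36) and mRpL9 (0.40). Of the 64 genes, 24 had their lowest fitted value in posterior fragments and 15 in ato1, and 15 had their highest in roX63, 12 in Su(roDom)519, 12 in E(roDom)2033 homozygotes and none in posterior fragments.

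Across the 9 condition values, the correlation of a gene with the median of the others had a median of 0.65, was above 0.5 for 39 genes and below 0 for 6. The points share the arrays, the reference and the dye. mRpS6 was most like the rest of the set (0.93), and mRpL39 (-0.37) and mRpL37 (-0.29) were least like it, followed by mRpL48, mRpS30, mRpL1 and mRpL44. The dimmest probes in the reference were those of mRpL48, mRpL55, mRpS9, mRpL44 and mRpL41. The brightest were those of mRpS30, mRpL3, mRpS7, mRpL19 and mRpS16. mRpL12, which also belongs to the stalk and in flies is needed for normal tissue growth, passed in roX63 alone (0.54 ± 0.17, adjusted p = 0.043). mRpL55, identified as a mitochondrial ribosomal protein in Drosophila, was called in roX63 (0.46 ± 0.13, adjusted p = 0.018), but its other probe gave 0.034 there (adjusted p = 0.86). Dimmer probes also missed the threshold for mRpL32 in E(roDom)2033 heterozygotes (0.56), roX63 (0.38) and extra-R8 minus stop-furrow discs (0.33). They missed it for mRpS11 in ato1 (-0.39) and for mRpS18C in E(roDom)2033 heterozygotes (0.62). In extra-R8 minus stop-furrow discs those of mRpS11 (0.18) and mRpL55 (0.06) missed it too. Of the 3 dimmer probes of mRpS16, 1 missed it in roX63 (0.35) and in posterior minus extra-R8 discs (-0.35). Other dimmer probes passed where the brightest missed. Both of mRpL3 did so in E(roDom)2033 homozygotes (0.33 and 0.43) and heterozygotes (0.43 and 0.70). They also did so in extra-R8 minus stop-furrow discs (0.24 and 0.45), and 1 of them in hh1 (0.31). For mRpS16, 1 did so in E(roDom)2033 heterozygotes (0.74).

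**Figure D4:**
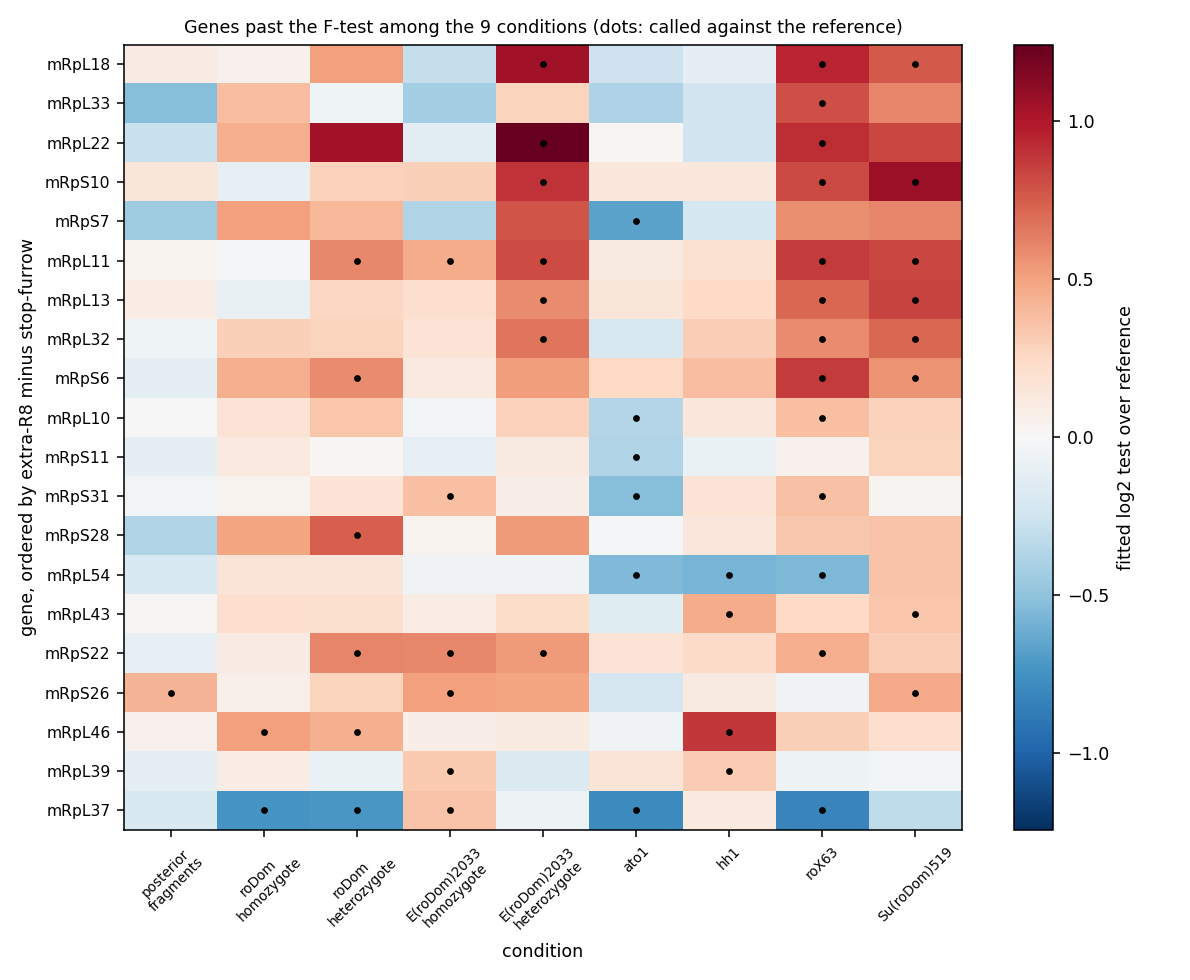
Fitted log2 ratio of test over reference (colour) of the 20 genes past the F-test (rows, ordered by extra-R8 minus stop-furrow discs) in the 9 conditions (columns); a dot marks an adjusted p under 0.05 against the reference. mRpL22 in E(roDom)2033 heterozygotes (1.24) is the highest cell, and mRpL37 in roX63 (-0.82) the lowest.

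Against the mean of the other 8 conditions, posterior fragments stood out by genes that were lower: 11 of the 64 were lower (17.2%, against 3.05% of all probes) and none higher (5.49% of all probes). mRpS28 was the clearest of them, at -0.18, -0.75, -0.79 and -0.26 on its 4 arrays, with a difference of -0.70 ± 0.13 (adjusted p = 0.0014). The others were mRpL22 (-0.79), mRpS7 (-0.64), mRpS6 (-0.59), mRpL20 (-0.57), mRpS18C (-0.48), mRpS22 (-0.48), mRpL16 (-0.46), mRpL11 (-0.44), mRpS35 (-0.43) and mRpL21 (-0.33). In ato1, 8 were lower (12.5%, against 2.46% of all probes) and none higher (1.41% of all probes), led by mRpS7 (-0.90), mRpS31 (-0.68) and mRpL18 (-0.64), with mRpL10 (-0.56), mRpS26 (-0.50), mRpL37 (-0.49), mRpS11 (-0.41) and mRpL43 (-0.37).

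In E(roDom)2033 homozygotes mRpL37 and mRpL39 (0.31) were higher and mRpL18 was lower (-0.68), where 5.36% of all probes were called. In hh1 discs mRpL46, mRpL37 (0.53) and mRpL39 (0.31) were higher (1.94%). In roX63 mRpL18 was higher (0.72) and mRpL37 lower (-0.53), where 2.78% were called, and in Su(roDom)519 mRpS10 was higher (0.73, 0.491%). No gene of the set was called against the other conditions in roDom homozygotes (0.449%), roDom heterozygotes (0.0425%) or E(roDom)2033 heterozygotes (0.582%). These calls summed to 28 over the 9 conditions, and to 17 without posterior replicate 2 or 3 and 16 without posterior replicate 4.

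The comparison of extra-R8 with stop-furrow discs asks which transcripts differ between discs with more and with fewer differentiating photoreceptors. Of the 64 genes 15 were higher in extra-R8 discs (23.4%, against 4.40% of all probes) and 2 lower (3.1%, against 3.70%). The median difference was 0.19 with 51 genes above 0, beside -0.01 over all named genes. mRpL18 separated the classes completely. It ran from 0.45 to 1.23 on the 6 extra-R8 arrays (median 1.00) and from -0.65 to 0.23 on the 13 stop-furrow arrays (median -0.18). The difference was 1.01 ± 0.14 (adjusted p = 0.00012). It was the only one of the 64 genes whose classes did not overlap, where 0.249% of all probes were higher without overlap. The array values carry no dye term, and 4 of the 6 extra-R8 arrays had test RNA in Cy5 against 5 of the 13 stop-furrow arrays.

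mRpS10 ran from 0.37 to 1.55 in extra-R8 discs (median 1.15) and from -0.31 to 0.72 in stop-furrow discs (median -0.01), and differed by 0.82 ± 0.13 (adjusted p = 0.0007). mRpL11 ran from 0.50 to 1.27 (median 0.89) and from -0.32 to 0.74 (median 0.14), and differed by 0.66 ± 0.11 (adjusted p = 0.0011). Both overlapped through a few stop-furrow arrays, the highest being ato1 replicate 3 for mRpS10 and E(roDom)2033 homozygote replicate 3 for mRpL11. mRpL13, a large subunit protein with a bacterial counterpart, ran from 0.31 to 1.22 and from -0.33 to 0.54, and differed by 0.65 ± 0.11 (adjusted p = 0.0013). mRpS7 ran from 0.43 to 0.80 and from -1.41 to 0.70, and differed by 0.78 ± 0.18 (adjusted p = 0.0079). Its stop-furrow values were spread, and of the 3 roDom homozygotes, at 0.41, 0.33 and 0.70, the last lay among the extra-R8 values and the others just below them.

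Also among the 10 largest called differences were mRpL23 (0.90), mRpL33 (0.87), mRpL22 (0.84), mRpL32 (0.51) and mRpS18C (0.47). The second probe of mRpL23 gave 0.68 (adjusted p = 0.0022). mRpL37 (-0.31 ± 0.09, adjusted p = 0.034) and mRpL39 (-0.27 ± 0.07, adjusted p = 0.021) were lower. mRpL39 ran from -0.16 to 0.05 in extra-R8 discs and from -0.07 to 0.48 in stop-furrow discs.

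Within arrays of the same dye the median difference of the 64 genes was 0.25 in Cy3 (2 against 8 arrays) and 0.16 in Cy5 (4 against 5 arrays). All 17 called genes kept their sign in both, but they were called from these same arrays, so their signs are no separate test. On the only scanning day that held both classes (2 against 2 arrays) the median difference was 0.27, with 16 of the 17 called genes in the same direction. This value has no dye term, and that day both extra-R8 arrays had test RNA in Cy5 against 1 of the 2 stop-furrow arrays. With the scanning day as a random block 5 genes were called, mRpL11, mRpL13, mRpL18, mRpL39 and mRpS10, and with it as a fixed block only mRpL18 (0.93, adjusted p = 0.018). The count of 17 was 7 without roDom homozygote replicate 1, roX63 replicate 3 or Su(roDom)519 replicate 2. It was 9 without roX63 replicate 2, 10 without Su(roDom)519 replicate 1, 11 without Su(roDom)519 replicate 3 and 27 without ato1 replicate 3.

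Markers of other tissues moved between single arrays of these classes. The median of the 7 fat body markers ran from -0.05 to 1.34 on extra-R8 arrays and from -0.46 to 1.23 on stop-furrow arrays, with no marker called. That of the 4 salivary glue genes ran from -4.32 to -3.08 and from -4.59 to 2.41, again with none called. Blood cell markers (6) ran from -0.42 to 2.01 and from -1.31 to 1.18, muscle markers (9) from -0.09 to 1.51 and from -0.07 to 2.19, and glial markers (4) from -0.64 to -0.17 and from -0.73 to 0.08, with none called. Of the 7 eye disc markers 3 were called and of the 7 antennal markers 2. The part of other tissues in the differences of the 64 genes was not tested.

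Posterior fragments minus extra-R8 discs compares the tissue behind the furrow with whole discs that hold extra R8 cells. Of the 64 genes 18 were lower in posterior fragments (28.1%, against 3.38% of all probes) and 1 higher (4.49% of all probes). The median difference was -0.34, with 6 genes above 0, beside -0.001 over all named genes. For 24 genes every posterior array lay below every extra-R8 array, against 4.54% of all probes. These array values carry no dye term. Test RNA was in Cy3 on 3 of the 4 posterior arrays and in Cy5 on 4 of the 6 extra-R8 arrays. The fitted dye term was above 0 for 61 of the 64 genes, and the part of the dyes in this count was not tested. mRpL33, a small protein of the large subunit, was at 0.03, -0.49, -0.83 and -0.72 in posterior fragments and from 0.47 to 1.30 in extra-R8 discs, and differed by -1.23 ± 0.29 (adjusted p = 0.0099).

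mRpS6, whose bacterial counterpart lies on the platform of the small subunit, was at -0.18, -0.40, -0.31 and -0.05 in posterior fragments and from 0.19 to 1.11 in extra-R8 discs, and differed by -0.84 ± 0.16 (adjusted p = 0.0024). mRpL11 was at 0.11, -0.16, -0.16 and 0.07 against 0.50 to 1.27, and differed by -0.81 ± 0.15 (adjusted p = 0.0018). mRpS7 was at -0.18, -0.55, -0.77 and -0.48 against 0.43 to 0.80, and differed by -1.03 ± 0.23 (adjusted p = 0.0079). None of these 4 genes overlapped between the classes. mRpL23 was not called by its brightest probe (-0.50), but its dimmer second probe passed (-0.73, adjusted p = 0.0086). Other large called differences were those of mRpL22 (-1.14), mRpS33 (-0.85), mRpS10 (-0.79), mRpL20 (-0.77), mRpL18 (-0.75) and mRpS18C (-0.74), and mRpL37 was higher in posterior fragments (0.37 ± 0.11, adjusted p = 0.049).

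The median difference was -0.35 within Cy3 (3 against 2 arrays) and -0.47 within Cy5 (1 against 4 arrays). All 19 called genes kept their sign in both, but they too were called from these same arrays, so their signs are no separate test. No scanning day held both classes. The random block left 4 calls (mRpL11, mRpL13, mRpS6 and mRpS7) and the fixed block none, and 3 were left without posterior replicate 4 and 12 without posterior replicate 3. Of other tissues' markers, 2 of 4 glial markers were called higher in posterior fragments (median 0.72), 1 of 7 eye disc markers was higher and 1 lower, and none of the fat body, muscle or salivary gland was called. Their part in these differences was not tested.

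Posterior fragments minus stop-furrow discs called no gene higher (4.97% of all probes were) and 5 lower (7.8%, against 3.00% of all probes), with a median difference of -0.17. mRpS28 ran from -0.79 to -0.18 in posterior fragments and from -0.54 to 0.72 in stop-furrow discs, and differed by -0.54 ± 0.14 (adjusted p = 0.017). mRpL39 ran from -0.26 to 0.07 and from -0.07 to 0.48, and differed by -0.34 ± 0.08 (adjusted p = 0.01). mRpS35 (-0.49), mRpL16 (-0.49) and mRpS22 (-0.38) were the others. On the scanning day with both classes (3 against 1 arrays) the median difference of the 64 genes was 0.07, opposite to the pooled one, while the 5 called genes kept their sign. This value has no dye term, and the arrays of that day were among those that gave the 5 calls. Without posterior replicate 1 there were 8 calls, without replicate 2 there was 1, without replicate 3 there were 2 and without replicate 4 none. The random block left mRpS28 and mRpL39, and under the fixed block none of the 5 passed and 1 other gene did. Of the markers, 4 of 7 of the eye disc (median 0.86), 2 of 4 of glia (median 0.52) and 1 of 6 of blood cells were called higher, and 1 of 7 of the antennal disc was higher and 1 lower, and their part was not tested. The 3 class comparisons share arrays, so their counts are not independent.

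**Figure D5:**
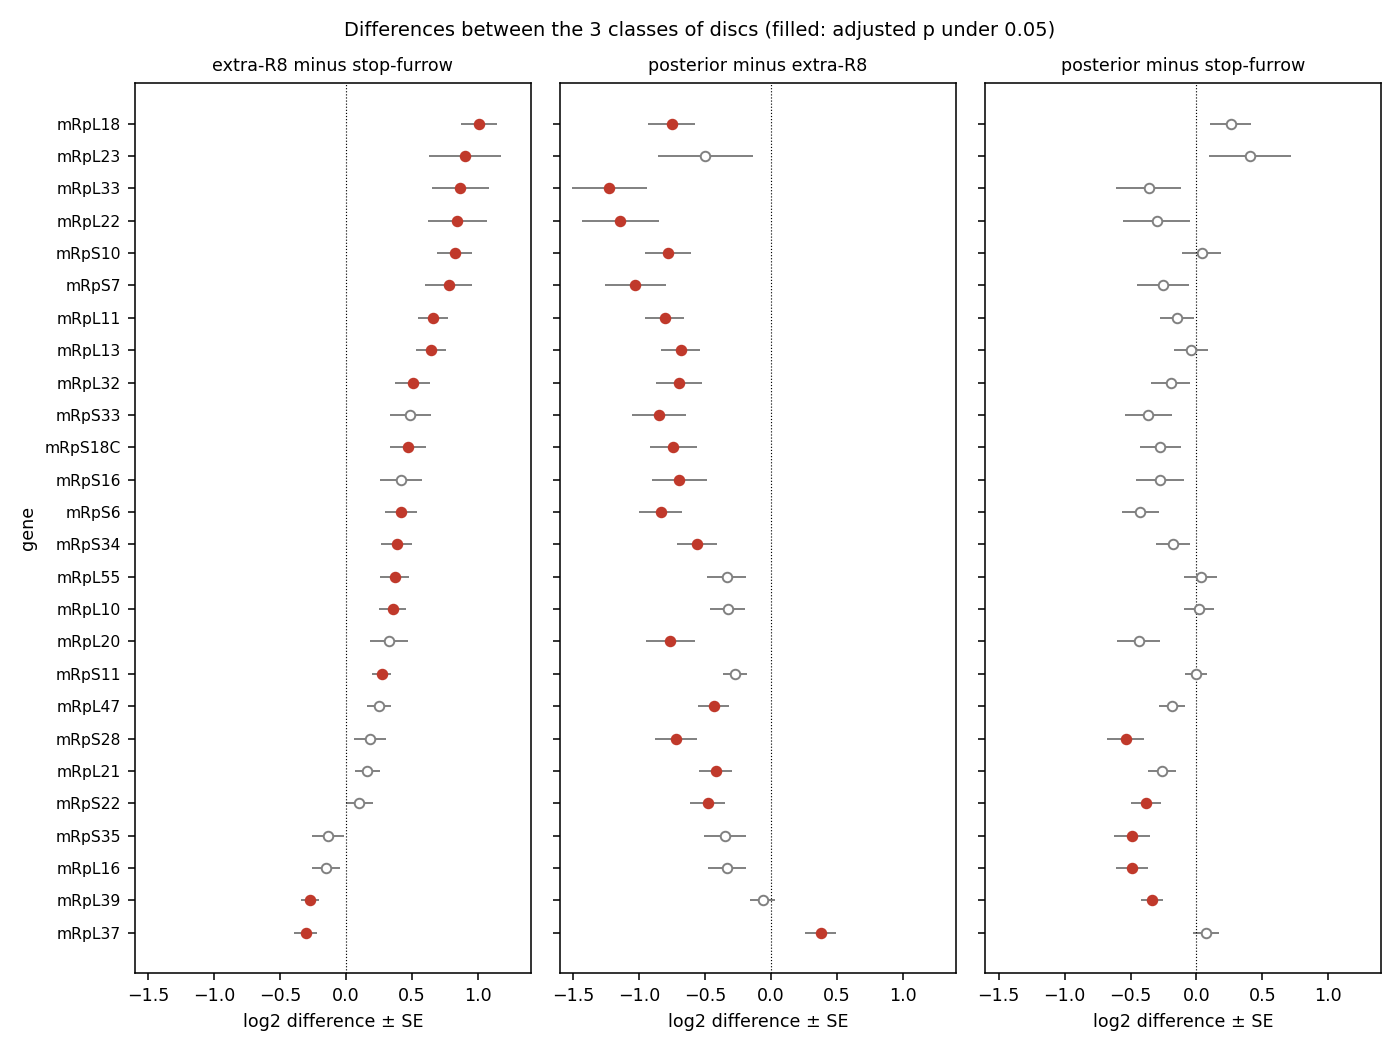
Fitted log2 difference with its standard error (horizontal axes) of the genes called in at least 1 of the comparisons between posterior fragments, extra-R8 discs and stop-furrow discs, filled where the adjusted p was under 0.05. mRpL18 differs by 1.01 between extra-R8 and stop-furrow discs, and mRpL33 by -1.23 between posterior fragments and extra-R8 discs.

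Other genes of mitochondrial translation, a list of 34 measured genes, gave 6 past the F-test (18%, beside 13.8% of all probes). The list holds a pair of ribosomal proteins with older names, tko and bonsai. bonsai was called higher in extra-R8 than in stop-furrow discs (0.48 ± 0.13, adjusted p = 0.031), and tko lower in posterior fragments than in extra-R8 discs (-0.74 ± 0.19, adjusted p = 0.02). In the first of these comparisons mTTF, a mitochondrial transcription terminator, was lower (-0.57), as was bsf (-0.46), an RNA-binding protein of mitochondrial transcripts. ValRS-m, the mitochondrial valyl-tRNA synthetase, was called lower than the reference in all mutant conditions except hh1, from -1.05 in roX63 to -0.67 in Su(roDom)519. It was higher in posterior fragments than in stop-furrow (0.85 ± 0.15, adjusted p = 0.00082) and extra-R8 discs (1.06 ± 0.18, adjusted p = 0.00086).

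Against the reference, further called genes of this list were mIF2 in posterior fragments (0.31), mtTFB2 in roDom homozygotes (-0.35) and mEFTu1 in roDom heterozygotes (0.82). In E(roDom)2033 homozygotes 9 were higher and 2 lower, among them mEFG1 (0.74), ProRS-m (0.63) and mEFTu1 (0.58), translation elongation factors and a prolyl-tRNA synthetase. TFAM, which packages mitochondrial DNA, was higher in E(roDom)2033 heterozygotes (0.90), hh1 (0.51) and Su(roDom)519 (0.90), and SLIRP2 was higher in roX63 (1.06). The list therefore had no single direction in these mutants.

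Cytoplasmic ribosomal protein genes (91 measured) were ordered differently over the conditions. Their median was highest in roDom heterozygotes (0.55) and lowest in E(roDom)2033 homozygotes (-0.09), and it was 0.34 in roX63 and 0.14 in Su(roDom)519. Nuclear genes of the respiratory chain (76 measured) had their highest median in roX63 (0.29) and their lowest in posterior fragments (-0.03). Of these, 4 of 76 passed the F-test, 5.3%, against 31.2% of the mitochondrial ribosomal protein genes. Of the cytoplasmic ones 21 of 91 passed, 23%. Extra-R8 minus stop-furrow discs had a median of 0.08 in cytoplasmic ribosomal protein genes, 0.17 in respiratory chain genes and 0.19 in mitochondrial ribosomal protein genes. Posterior minus extra-R8 discs had medians of -0.22, -0.32 and -0.34 in the same order. In roX63, 25 of 91 cytoplasmic ribosomal protein genes and 18 of 76 respiratory chain genes were called higher (6.13% of all probes). In each of these 2 families 1 gene was called lower there (7.40% of all probes). The difference between these families was not tested.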

How the data were processed

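Per the file headers, the authors deposited GenePix scanner files that give the intensity and local background of 17664 spots per array at both wavelengths. Per the file headers, each spot also has its percent of saturated pixels and a score that flags it as bad or missing. The authors' deposited value table holds log2 ratios of reference over test; its filters and centring are not given in the sources used here, and it served as an alternative. Background was subtracted by normexp (offset 50) in limma 3.58.1 under R 4.3.3, spots scored -75 or lower were left out, and log ratios were normalised by global loess, turned to test over reference by the dyes in the labels and averaged per probe. All 27 arrays entered 1 limma fit with 9 condition means and a dye term. Two-sided moderated tests were adjusted by Benjamini-Hochberg over 16489 probes. Probes were named through the RefSeq gene table (12714 by locus tag, 747 by an old locus tag, 2023 by synonym, 11 by symbol, 976 unmatched). A probe counted as detected at 2 background SDs over the local background.

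Nothing in the labels ties arrays to separate animals, so p-values measure the spread between arrays, whose number limits the precision. The genes and lists were chosen with earlier results of these data known. Named are all genes called in a comparison (the 10 largest changes where more passed), the extremes of each condition, the widest and narrowest ranges, the brightest and dimmest probes, and mRpL10, mRpL12, mRpL55, mRpS5, mRpS22 and mRpS29. In the 9 genes with several probes, the other probes differed from the brightest by at most 0.43 in the values against the reference. Class comparisons were not part of that limit. In posterior minus stop-furrow discs the brightest probe of mRpL23 was at 0.40 and its other probe at -0.06. A search of promoter sequences was planned and not run. Scripts were tested on simulated data. Alternatives were leaving out the dye term or the background subtraction, other normalizations (print-tip loess, scale), filters on dim or low-score spots, scanning day as a block, the 7th array series alone, the deposited table, the other reading of conflicting labels, the mean over probes, a 2-fold limit and leaving out arrays.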

Additional observations from a re-analysis of the deposited data

Results flagged for a closer look

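In 7 of 100 groups of 4 arrays tested, 1 array stood apart from the others by Dixon's criterion. Chance gives about 1 in 20 for a single group. The groups here are genes read on the same arrays of posterior fragments and of hh1, so they are not independent and their count cannot be weighed against that share. In posterior fragments, replicate 1 was high for mRpL23 (1.94, the others between -0.45 and -0.25), mRpS29 (0.34, the others between -0.08 and -0.05) and mRpL10 (0.087, the others between -0.14 and -0.11). This array had the lowest share of detected probes. Posterior replicate 2 was low for mRpL24 (-0.23, the others between 0.10 and 0.14) and mRpL19 (-0.63, the others between -0.05 and 0.01). In hh1 discs, replicate 4 was high for mRpL28 (0.20, the others between -0.46 and -0.40) and mRpL46 (1.08, the others between 0.78 and 0.82), and mRpL46 was called in hh1 without that array too. The cause of these deviations was not tested.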

How the results depend on the processing

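No paired analysis was possible because the replicate numbers were given in accession order and pair no arrays across conditions. The counts below are of called genes among the 64, in the order used in the report where a comparison is not named. Scanning day as a random block (correlation 0.24) left 0 in posterior fragments, 17 in roX63, 7 in Su(roDom)519, 2 in posterior minus stop-furrow, 5 in extra-R8 minus stop-furrow, 4 in posterior minus extra-R8 discs and 12 past the F-test. As a fixed block it left 0 in posterior fragments, 1 in roDom homozygotes, 0 in roDom heterozygotes, 9 and 3 in E(roDom)2033 homozygotes and heterozygotes, 16 in ato1, 6 in roX63, 4 in Su(roDom)519, 1, 1 and 0 in the class comparisons and 9 past the F-test. Medians were then 0.12 and 0.081 in roDom homozygotes and heterozygotes, 0.39 in E(roDom)2033 homozygotes and 0.19 in roX63. In the fixed block, counts and medians of a condition against the reference are set to a scanning day that held hh1 replicate 1 alone. They carry the deviation of that array, which differences between conditions do not. The same holds for the roX63 values that follow. Under this block 29 of 136 calls of single genes were kept, 98 lost and 9 reversed. The reversed ones were mRpL30 (-0.022), mRpL2 (-0.14) and mRpL9 (-0.0073) in roX63, mRpL10 (-0.12), mRpS6 (-0.019), mRpS34 (-0.044) and mRpS18C (-0.20) in extra-R8 minus stop-furrow, and mRpL20 (0.45) and mRpS18C (0.25) in posterior minus extra-R8 discs.

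Without the dye term there were 1 in posterior fragments, 2 in roDom and 4 in E(roDom)2033 heterozygotes, 5 in ato1, 9 in Su(roDom)519 and 2 in posterior minus stop-furrow, with a median of 0.17 in roDom homozygotes. Scale normalization gave 6 in posterior fragments, 6 in E(roDom)2033 homozygotes, 5 in ato1 and 9 in posterior minus stop-furrow. The 7th series alone gave 1 in posterior fragments, 1 in roDom homozygotes, 14 in E(roDom)2033 heterozygotes, 11 in extra-R8 minus stop-furrow, 44 against the other conditions and a median of 0.31 in roDom homozygotes. The same without the dye term, chosen after seeing the data, gave 0 in posterior fragments, 0 in roDom homozygotes, 1 in roDom heterozygotes, 9 and 3 in E(roDom)2033 homozygotes and heterozygotes, 4 in ato1, 2 in hh1, 20 in roX63, 8 in Su(roDom)519, 2 in posterior minus stop-furrow, 9 in extra-R8 minus stop-furrow, 17 against the other conditions, 11 past the F-test and a median of 0.14 in roDom homozygotes.

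The authors' deposited table gave 11 in roDom heterozygotes. E(roDom)2033 replicates 2 and 3 as heterozygotes gave 5 in E(roDom)2033 homozygotes, 5 in ato1, 3 in posterior minus stop-furrow, 7 in extra-R8 minus stop-furrow, 14 against the other conditions and 12 past the F-test. roDom homozygote replicate 2 turned by its header, also chosen after seeing the data, gave 1 in posterior fragments, 0 in roDom homozygotes, 4 in roDom heterozygotes, 5 in ato1, 3 in posterior minus stop-furrow, 16 against the other conditions and a median of 0.089 in roDom homozygotes. A 2-fold limit left 2 in E(roDom)2033 heterozygotes, 1 in roX63, 1 in Su(roDom)519, 1 in extra-R8 minus stop-furrow, 3 in posterior minus extra-R8 discs and 0 in the other comparisons named here. No background subtraction, print-tip loess, the filters and the mean over probes left all these counts within 1.5 times.

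Leaving out 1 array at a time gave 14 to 25 past the F-test, 16 to 41 against the other conditions, 0 to 8 in posterior minus stop-furrow, 7 to 27 in extra-R8 minus stop-furrow, 3 to 21 in posterior minus extra-R8 discs and 0 to 0 in the test of unequal homozygote effects. It gave 0 to 2 in posterior fragments, 1 to 2 and 0 to 0 in roDom homozygotes and heterozygotes, 0 to 13 and 0 to 2 in E(roDom)2033 homozygotes and heterozygotes, 4 to 5 in ato1, 2 to 6 in hh1, 10 to 16 in roX63 and 4 to 6 in Su(roDom)519. Medians ran from -0.13 to 0.005 in posterior fragments, 0.15 to 0.34 and 0.24 to 0.25 in roDom homozygotes and heterozygotes, 0.11 to 0.11 and 0.14 to 0.42 in E(roDom)2033 homozygotes and heterozygotes, -0.12 to 0.10 in ato1, 0.06 to 0.20 in hh1, 0.35 to 0.41 in roX63 and 0.31 to 0.37 in Su(roDom)519. Of the 136 calls 23 held without each array. Where a condition kept 1 array, it was assumed to vary like the others. The cause of these changes was not tested.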

Other observations

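Transcripts of the mitochondrial genome itself, 12 genes added after the files were seen, were not ordered like the nuclear ribosomal protein genes. Their median log2 ratio was 0.59 in E(roDom)2033 homozygotes, 0.39 in hh1, 0.19 in Su(roDom)519 and 0.07 in E(roDom)2033 heterozygotes. It was -0.07 in roX63, -0.11 in roDom homozygotes, -0.25 in roDom heterozygotes, -0.61 in posterior fragments and -0.71 in ato1. Their median dye term was -0.45, opposite in sign to that of the 64 genes, and 2 of 12 passed the F-test.

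Split by number, a division made after the values were seen and not tested, 35 of the 64 genes carry a number also used for bacterial ribosomal proteins (up to 36 in the large and 21 in the small subunit) and 29 do not. Extra-R8 minus stop-furrow discs called 13 of the 35 higher and none lower, and 2 of the 29 higher and 2 lower, where 4.40% of all probes were higher and 3.70% lower. The median differences were 0.29 and 0.15. The split follows the numbers and not descent, since mRpL47, a relative of a bacterial protein, falls among the 29.

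In the authors' deposited table, the column of hh1 replicate 2 and that of Su(roDom)519 replicate 3 held values of equal size and opposite sign at all 10353 shared entries, whereas their scanner values correlated at -0.14. The hh1 column was left out of the alternative that used the table.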
